A study of Arabidopsis thaliana with 625 samples.

Results

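Glutathione transferases join the tripeptide glutathione to reactive or toxic compounds. The phi (GSTF) and tau (GSTU) classes are the large plant-specific classes of this family, and many of their genes are switched on by herbicides, oxidative stress, pathogens and salicylic acid or jasmonate. The 10 genes described here, of 32833 in the deposited expression table, were 6 of the phi class and 4 of the tau class. The phi genes were GSTF8 (AT2G47730), GSTF6 (AT1G02930), GSTF7 (AT1G02920), GSTF2 (AT4G02520), GSTF3 (AT2G02930) and GSTF9 (AT2G30860). The tau genes were GSTU20 (AT1G78370), GSTU19 (AT1G78380), GSTU24 (AT1G17170) and GSTU25 (AT1G17180). All 10 were found in the expression files. They were chosen by name with earlier results of these cells known, for their difference between lines and for their relation to reporter brightness and to stress genes. Those values are therefore given as a description of the members, without a test.

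The cells came from aerial tissue of Arabidopsis thaliana seedlings at 10 days post-germination and were profiled one by one with Smart-seq2, which reads full-length transcripts from cells in the wells of a plate. In the ATML1p::YFP-RCI2A line, an epidermal promoter drives YFP joined to a small membrane protein; it gave 143 cells in 2 pools on 5 plates. In the TMMp::TMM-YFP line, the promoter of TMM, a stomatal lineage gene for a receptor-like protein, drives TMM joined to YFP; it gave 478 cells in 2 pools on 7 plates. Another 4 samples, made with a droplet method, were not analysed here. No group was heated or wounded, and the labels used here do not describe how cells were released, so stress could be read only from marker genes in the same cells. Each deposited sample was 1 cell, and the pool was taken as the replicate. Nothing said whether pools came from separate cultures, so spreads and p-values may be technical, and each plate held 1 line, so plate and line cannot be told apart.

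Levels were TPM, which are per length and relative to all transcripts of a cell, and the depth behind each value is unknown. A median of 3179 genes per cell was at a TPM of at least 1, called detected here, in ATML1p (range 377 to 9460) and of 2777 in TMMp (384 to 10726). The cells of plate ML2 of ATML1p had a median of 1311. The photosynthesis list of 27 genes summed to 18133 to 74547 TPM per plate in ATML1p and to 3811 to 7089 in TMMp, and the 8 stomatal lineage genes to 23.7 to 224 and 1137 to 1851. Of the defining markers, PDF1 of the outer cell layer was detected in 10.5% of ATML1p and 58.2% of TMMp cells. A total of 31 ATML1p and 4 TMMp cells had at least 5% of their TPM in the photosynthesis list, a rule chosen after seeing the data, and are called photosynthesis-rich below.

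The genes lie in pairs that matter for reading their values. GSTF6 and GSTF7 are neighbours on chromosome 1 (TAIR10.1, minus strand, transcripts at 661309 to 662456 and 658578 to 659980), and their coding sequences are 94.7% identical. GSTF2 on chromosome 4 and GSTF3 on chromosome 2 are 94.5% identical. GSTU19 and GSTU20, side by side on chromosome 1, are 76.9% identical, and GSTU24 and GSTU25, also side by side there, 80.5%. The longest stretches that the first 2 pairs share letter for letter in their coding sequences are 116 and 74 bases long. They are shown because a short read from them, from RefSeq's sequence, fits both genes.
GSTF6 and GSTF7: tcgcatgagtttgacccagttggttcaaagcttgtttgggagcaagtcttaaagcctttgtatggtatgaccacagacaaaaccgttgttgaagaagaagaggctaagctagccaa
GSTF2 and GSTF3: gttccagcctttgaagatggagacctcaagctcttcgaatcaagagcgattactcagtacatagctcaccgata
Over the whole coding sequence, 17.3% of the stretches of 50 bases in GSTF6 also occur in GSTF7, and 5.93% of those in GSTF2 also occur in GSTF3. Reads could have been split within these pairs, so the separate values of GSTF6 and GSTF7, and of GSTF2 and GSTF3, are uncertain. The tau pairs share no stretch of 50 bases; their longest are 18 bases in GSTU19 and GSTU20 and 23 in GSTU24 and GSTU25.

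The 250 bases before the transcript start were read for 3 motifs on both strands. TGACG, the core of the as-1 element bound by TGA factors, which act in many responses to salicylic acid and xenobiotics, was in 3 of the 10 (GSTF3, GSTU24 and GSTU25) and in 19.2% of 27443 promoters of the same length. TTGAC, the core of the W box bound by WRKY factors, was in 7 of 10 and in 44.4% of all, and it can overlap TGACG in TTGACG. GAANNTTC, the core of the heat shock element, was in GSTF8, GSTF7 and GSTU25 and in 9.89% of all. The promoters of GSTU24 and GSTU25 are printed because these neighbours appeared in the same cells, and that of GSTF8 because of its relation to heat genes. They are RefSeq sequence of TAIR10.1, plus strand, at chr1:5869293-5869542 (GSTU24), chr1:5871774-5872023 (GSTU25) and chr2:19557226-19557475 (GSTF8). Capitals mark TGACG in the first 2 and GAANNTTC in GSTF8.
GSTU24: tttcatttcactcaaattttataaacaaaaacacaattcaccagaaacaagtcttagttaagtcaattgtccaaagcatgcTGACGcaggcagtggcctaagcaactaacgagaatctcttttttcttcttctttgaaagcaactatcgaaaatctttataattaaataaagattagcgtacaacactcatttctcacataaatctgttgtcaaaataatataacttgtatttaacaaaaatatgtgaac
GSTU25: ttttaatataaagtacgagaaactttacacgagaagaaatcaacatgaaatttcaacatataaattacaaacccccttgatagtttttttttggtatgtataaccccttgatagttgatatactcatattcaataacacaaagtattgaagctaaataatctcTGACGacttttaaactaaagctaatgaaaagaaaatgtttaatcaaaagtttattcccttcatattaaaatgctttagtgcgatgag
GSTF8: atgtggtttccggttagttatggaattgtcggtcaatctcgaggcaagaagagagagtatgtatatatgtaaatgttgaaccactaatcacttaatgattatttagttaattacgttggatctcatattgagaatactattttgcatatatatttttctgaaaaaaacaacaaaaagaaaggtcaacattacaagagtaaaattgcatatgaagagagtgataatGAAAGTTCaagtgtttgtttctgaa
TGACG began at base -169 from the start in GSTU24 and at -87 in GSTU25, and the heat shock core began at -25 in GSTF8. A match is a string of letters and not a measured site.

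GSTF8, a phi transferase known in Arabidopsis as a stress-responsive gene with an as-1-like promoter element, was among the highest transcripts of both lines. Its mean of all cells ranked 4 among all genes in ATML1p and 2 in TMMp, and it was detected in 97.9% of ATML1p and 100% of TMMp cells. The plate means were 4962, 6126, 6369, 7654 and 7729 TPM in ATML1p. In TMMp the lowest plate was at 8169, the median at 9653 and the highest at 10460 TPM. The plates of the lines did not overlap, with TMMp above. By pool, GSTF8 was at 5433 and 7300 TPM in ATML1p and at 8197 and 9897 in TMMp (log2 difference, TMMp minus ATML1p, 0.52 ± 0.43 SE). The median difference of all tested genes was 0.32 on this scale, 0.02 on means of log2 values over cells and 0.16 after quantile normalization, so differences are read against it.

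GSTF6 and GSTF7, phi transferases known to respond to pathogens and salicylic acid, were higher in ATML1p. In ATML1p, GSTF6 stood at 2338 and 3357 TPM in the 2 pools, and in TMMp at 983 and 768 (log2 difference -1.69 ± 0.35). Its plates ran from 1626 (plate ML2) to 3456 TPM in ATML1p and from 341 to 1166, with a median of 972, in TMMp, without overlap. GSTF7 was at 1098 and 1933 TPM against 465 and 426 (-1.71 ± 0.36). Its plates ran from 767 to 2531 TPM and from 254 to 732, again without overlap, though by a narrow gap. More cells held these transcripts in ATML1p, with GSTF6 detected in 63.6% against 39.5% of cells and GSTF7 in 32.9% against 18.4%. The median of the cells that had GSTF6 was also higher, at 3019 TPM against 1060.

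GSTF2, known as a phi transferase that binds auxin-related compounds and flavonoids, and its near copy GSTF3 were at lower levels. GSTF2 was at 133 and 190 TPM in ATML1p and at 50.6 and 28.9 in TMMp (log2 difference -2.03 ± 0.39). It was detected in 30.1% and 12.8% of cells. GSTF3 was detected in 2 ATML1p and 5 TMMp cells. Its pools were at 0 and 1.51 TPM against 2.08 and 12.9 TPM, and 1 TMMp cell at 4331 TPM held 93.5% of the TMMp total, so its log2 difference of 2.05 ± 0.93 rested on that cell.

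GSTF9, a phi transferase that also has glutathione peroxidase activity, was at 382 and 128 TPM in ATML1p and at 25.2 and 12.4 in TMMp (log2 difference -3.57 ± 0.58). Its ATML1p plates spread widely, at 251, 574, 104, 24.7 and 237 TPM in the order ML1, ML2, ML1-5, ML1-6 and ML1-7. The TMMp plates ran from 4.18 to 28.3 TPM with a median of 16.9, and the lowest ATML1p plate lay inside that range. It was detected in 19.6% of ATML1p and 5.0% of TMMp cells.

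GSTU19, a tau transferase with broad activity towards xenobiotics, was the only member whose pools overlapped between the lines, as 8387 of the 18390 genes tested did. It was at 4881 and 5854 TPM in ATML1p and at 4614 and 7746 in TMMp (log2 difference 0.16 ± 0.44), and its mean ranked 6 in both lines. It was detected in 88.8% and 86.2% of cells, but the cells ranged up to 40672 and 45090 TPM. The median of the cells in which it was detected was 1386 TPM in ATML1p and 4219 in TMMp.

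Its neighbour GSTU20, a tau transferase known to bind the jasmonate-conjugating enzyme FIN219/JAR1, stood at the other end. The ATML1p pools had 277 and 124 TPM of it and the TMMp pools 0 and 0.446, with a log2 difference of -7.27 ± 0.62. Plate means were 149, 464, 259, 9.23 and 116 TPM in ATML1p, in the plate order above. All TMMp plates were listed at 0 except TMM6 at 2.17 TPM, which came from 1 cell at 150 TPM. In ATML1p the transcript came from 12 of 143 cells (8.4%, exact Clopper-Pearson 95% interval 4.4 to 14.2, which covers the counting of cells only), against 1 of 478 (0.2%, 0.0 to 1.2). The levels in these 12 cells went from 34.5 to 7764 TPM with a median of 1699, and each of the 5 ATML1p plates held at least 1. Of the 12, 11 also had GSTU19 and 8 had GSTF9, while none had GSTF7, GSTF2 or GSTU25. The product of the shares of cells gives 10.7 for GSTU19 and 2.3 for GSTF9. It gives 3.9 for GSTF7, 3.6 for GSTF2 and 1.4 for GSTU25. The stomatal lineage and guard cell lists were at 0 in all 12, and their medians were also 0 in the other 131 ATML1p cells. The median YFP brightness of the 12 was 12.11 on the log2 scale, against 12.82 in the other ATML1p cells. None was photosynthesis-rich, but their photosynthesis list was not lower than in the other cells. It summed to a median of 6178 TPM against 4166, and reached 40168. A median of 15.0 of its 27 genes was detected, against 13.0. These medians were taken over all plates, and most of the 12 cells lay on plates ML1 and ML2, so plate is mixed into them.

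GSTU24 and GSTU25, tau transferases strongly induced by xenobiotics in Arabidopsis, were low on average and present in a minority of cells. GSTU24 was at 121 and 148 TPM in ATML1p and at 36.0 and 45.1 in TMMp (log2 difference -1.71 ± 0.33), in 28.0% and 15.3% of cells. Its plates met at the edge, with 73.2 TPM in the lowest ATML1p plate and 75.5 in the highest TMMp plate. GSTU25 was at 147 and 98.6 TPM against 41.0 and 25.9 (-1.85 ± 0.39), in 11.9% and 6.5% of cells, and its plates overlapped.

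Both TMMp pools lay below both ATML1p pools for 7 of the 10 genes, and above them for GSTF8 and GSTF3. Among all 18390 genes tested, 19.8% had both TMMp pools below, 6370 genes had both above and 8387 overlapped. The members were chosen by this contrast among others, so nothing is read from these counts and no test of a member is given. Over all 18390 genes, 2.34% passed an adjusted p of 0.05 in limma in either direction, and 1.88% lower in TMMp. The median of the 10 log2 differences was -1.71, beside 0.32 over all genes. A pool mean does not tell fewer cells with a transcript from less transcript per cell. On means of log2 values over cells, GSTF6 stood at -3.02, GSTF9 at -1.24, GSTU20 at -1.06 and GSTF8 at 1.34. Without the photosynthesis-rich cells, GSTF8 was at 0.25 and GSTU24 at -1.97. A second class, cells with at least 14 of the 27 photosynthesis genes detected, held 69 ATML1p and 180 TMMp cells. Without it GSTF9 turned to 0.58, while GSTU20 was at -4.37. The 10 genes together took a like part of the transcriptome in both lines, 1.79% of TPM in ATML1p and 1.76% in TMMp, which GSTF8 and GSTU19 dominated. A mean of 3.83 members was detected per ATML1p cell and 2.85 per TMMp cell.

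**Figure D1:**
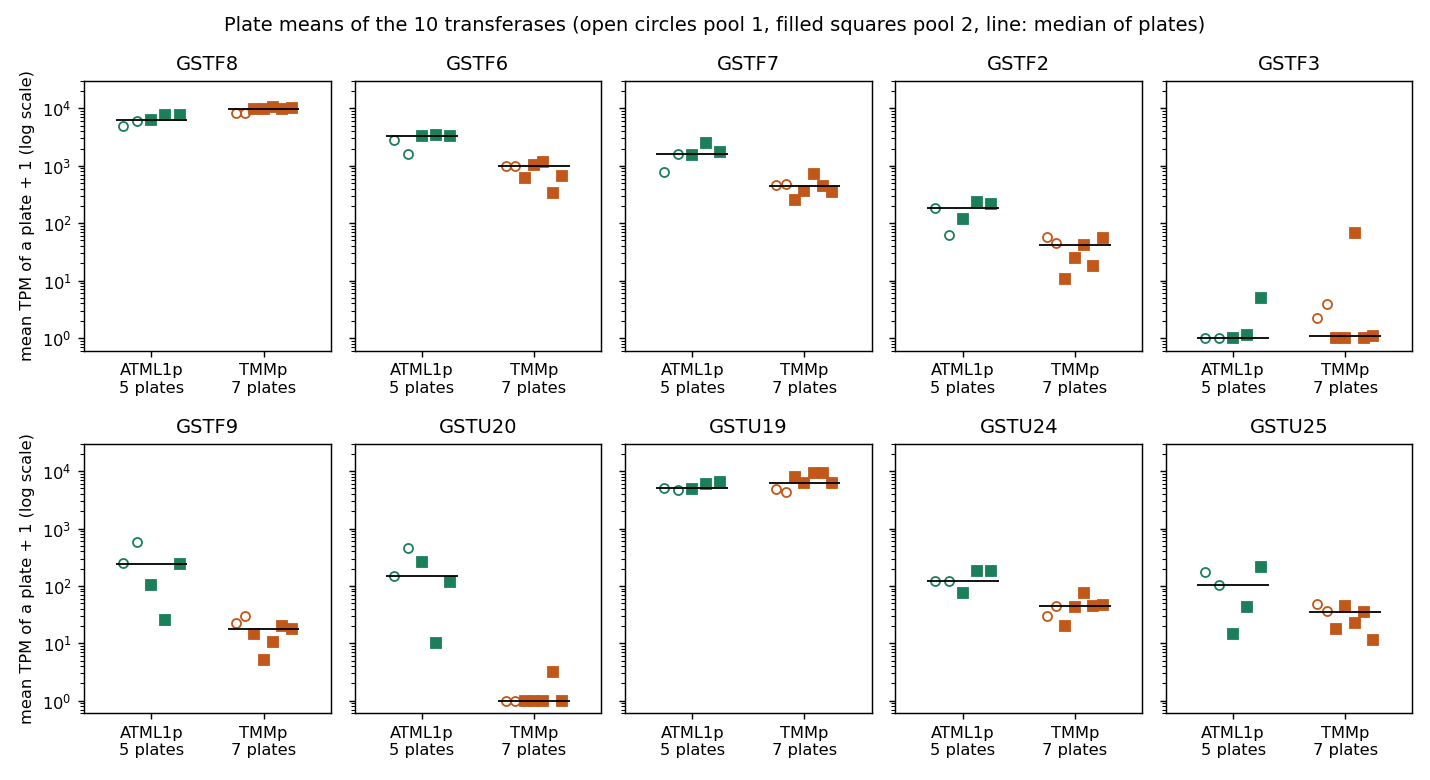
Mean TPM of each plate plus 1, on a log axis, for the 10 transferases, with plates of pool 1 as open circles, plates of pool 2 as filled squares and a line at the median of the plates. GSTF8 and GSTU19 stand highest in both lines, and GSTU20 lies between 9.23 and 464 TPM in ATML1p and at 0 in 6 of 7 TMMp plates.

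Within ATML1p, most members were low in photosynthesis-rich cells. GSTF8 averaged 1326 TPM in the 31 such cells and 8254 in the other 112. It was lower in them in each of the 4 plates with at least 3 such cells (mean log2 difference -2.46). GSTU19 averaged 805 against 6887 TPM, although it was detected in 96.8% of the photosynthesis-rich cells and 86.6% of the others. GSTF7 averaged 31.6 against 2147 TPM and GSTU25 2.15 against 144. GSTU19, GSTF9 and GSTF6 were detected in a larger share of these cells, with GSTF9 in 32.3% of photosynthesis-rich cells and 16.1% of the others, and GSTF6 in 71.0% and 61.6%. The mean TPM of GSTF9 and GSTF6 was lower there all the same, at 54.6 against 244 for GSTF9 and 1657 against 3445 for GSTF6. For GSTF9, 1 cell held 28.7% of the ATML1p total. Within plates, the mean log2 level of GSTF9 was higher in photosynthesis-rich cells in 3 of 4 plates (0.81), and that of GSTF6 in 2 of 4 (0.23). In cells with at least 14 of the 27 photosynthesis genes, GSTF9 was higher in 5 of 5 plates (2.98) and GSTF6 in 1 of 5 (-1.53). Across ATML1p cells, the mean within-plate Spearman correlation with the photosynthesis list was -0.56 for GSTF8 and 0.36 for GSTF9 (143 cells, 5 plates). All cells of a plate share a library preparation, and depth moves with such lists.

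The tau genes GSTU24, GSTU25 and GSTU19 were high in ATML1p cells with FAMA, a transcription factor of the last division that forms guard cells. GSTU24 was detected in 70.6% of the 17 cells with FAMA and in 22.2% of the other 126, at 666 against 69.3 TPM. GSTU19 averaged 19115 against 3741 TPM, and GSTU25 was in 41.2% against 7.9% of cells. In each of the 3 plates with at least 3 such cells all 3 genes were higher in them. The phi gene GSTF8 was also higher in them in 3 of 3 plates (mean log2 difference 1.82, from 0.44 to 3.24). Other phi genes went the other way, with GSTF6 in 29.4% against 68.3%, GSTF7 in 0% against 37.3% and GSTF2 in 11.8% against 32.5% of cells. All 12 ATML1p cells with SCAP1, a factor of maturing guard cells, had GSTU24, at a mean of 959 TPM. Cells with FAMA also had more genes detected, with a median of 4851 against 2827, and the part of depth in these shares was not tested. The guard cell list gave rank correlations of 0.65 with GSTU24, 0.65 with GSTU25 and 0.50 with GSTU19 over ATML1p cells. In TMMp these were -0.01, 0.26 and 0.03.

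In TMMp, GSTU25 and GSTU19 were higher in cells with FAMA in most or all plates, and GSTU24 was not. GSTU25 was detected in 34.5% of 55 cells with FAMA and in 2.8% of the other 423, and its mean log2 level was higher in them in 7 of 7 plates. GSTU19 averaged 8514 against 6595 TPM and was higher in 6 of 7 plates (mean log2 difference 2.21). GSTU24 was in 14.5% and 15.4% of cells, and higher in 3 of 7 plates. GSTF6 was in 12.7% against 43.0% of cells and lower in 7 of 7 plates. SPCH, the factor that starts the stomatal lineage, marked cells with less of the abundant transferases. GSTF8 averaged 5152 TPM in 77 cells with SPCH and 10206 in the other 401, and was lower in 7 of 7 plates (mean log2 difference -1.25 ± 0.64 SD). GSTU19 averaged 2253 against 7692 TPM, and GSTF6 was in 13.0% against 44.6% of cells. The 334 TMMp cells with none of SPCH, MUTE and FAMA averaged 10476 TPM of GSTF8, and 50.9% of them had GSTF6. Cells with SPCH had a median of 4164 genes detected against 2612, and GSTF8 fell with the number of genes detected in every TMMp plate (mean correlation -0.25).

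**Figure D2:**
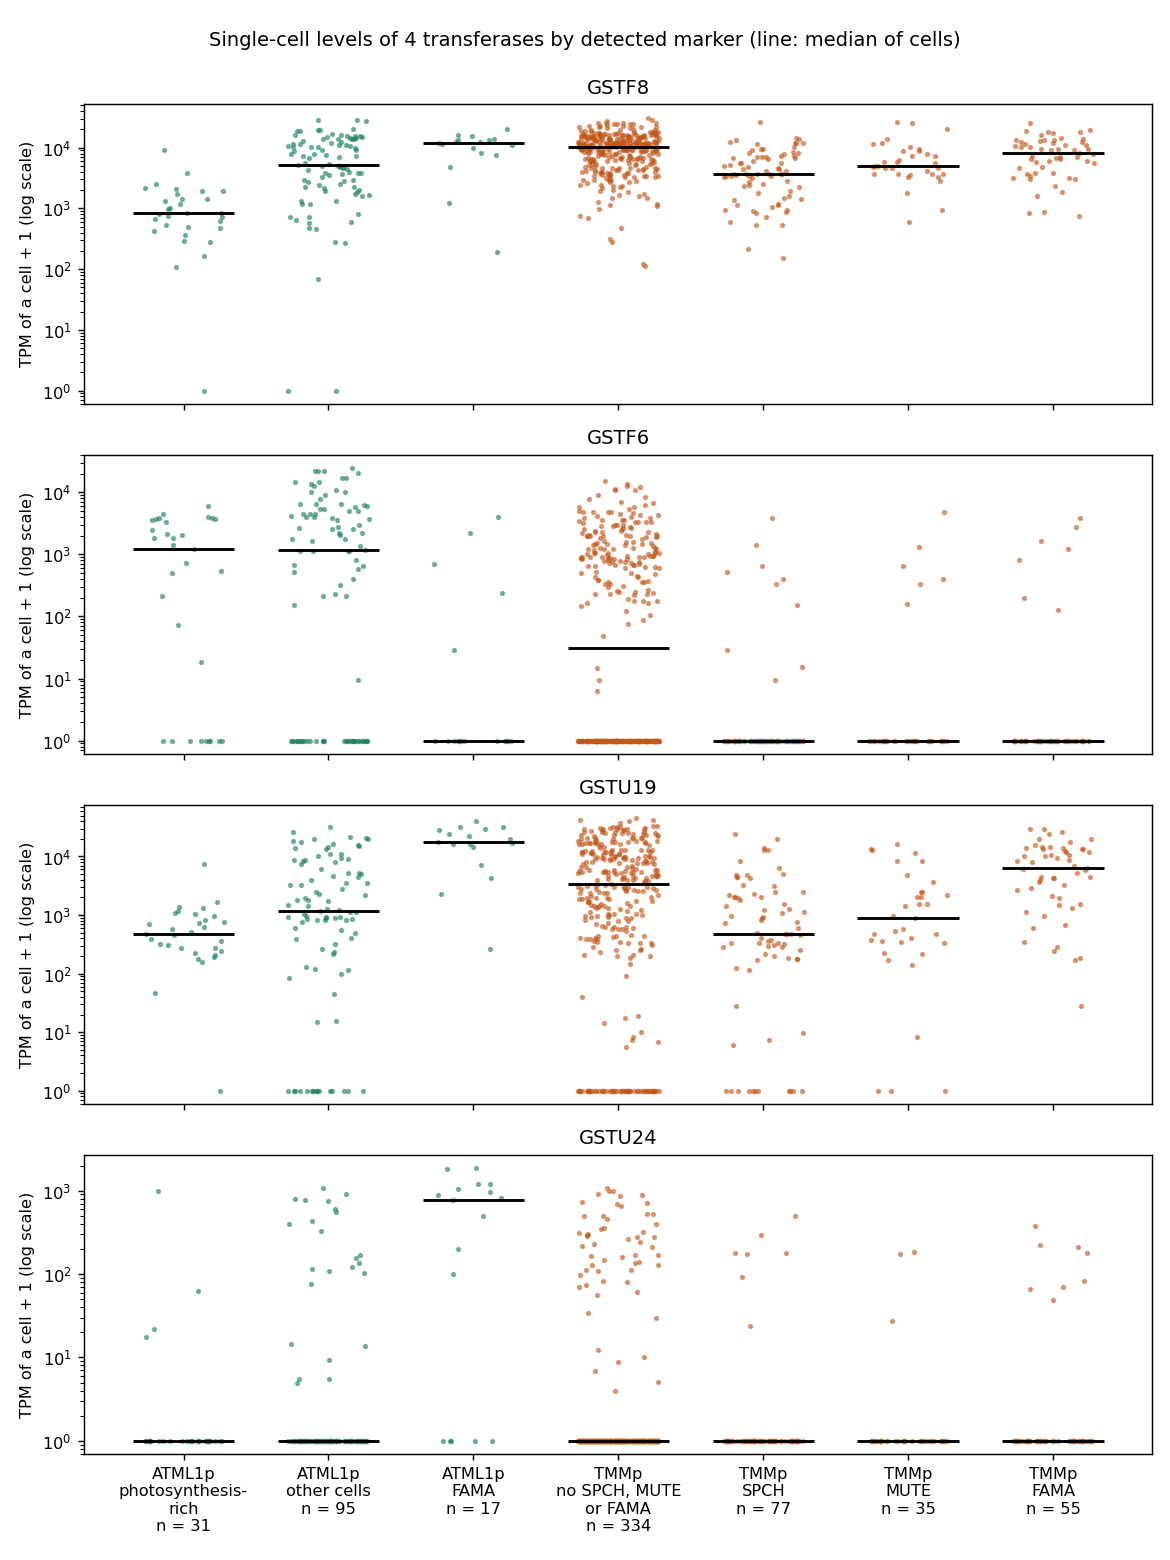
TPM plus 1 of single cells on a log axis for GSTF8, GSTF6, GSTU19 and GSTU24, in cells grouped by a detected marker, with a line at the median of the cells. A TMMp cell can stand under more than 1 marker. GSTU24 is detected in 12 of the 17 ATML1p cells with FAMA and in a minority of the other classes, and GSTF8 has its lowest median, 840 TPM, in photosynthesis-rich cells.

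Brightness in the FITC channel, which reads YFP, went with GSTF8 in opposite directions in the lines. Within ATML1p plates the correlation of GSTF8 with brightness was between 0.27 and 0.51, with a mean of 0.39. Within TMMp plates it was between -0.51 and -0.05, with a mean of -0.23. The difference between the lines was not tested. When each TMMp plate was split at its median brightness, GSTF8 differed in the brighter cells by a mean log2 difference of -0.41 ± 0.14 SE and below 0 in 6 of 7 plates. In ATML1p it was higher in the brighter cells in 5 of 5 plates, by 1.69 ± 0.78 SD. GSTF2 was also higher there in 5 of 5 plates (1.48), while GSTF9 and GSTU20 were lower in 5 of 5 (-1.29 and -1.19). In TMMp the other phi genes tested lay within 1 SE of 0 (GSTF6 -0.32 ± 0.39, GSTF7 -0.05 ± 0.31, GSTF2 -0.16 ± 0.21), and GSTU19 and GSTU24 were at 0.43 ± 0.26 and 0.37 ± 0.24. The 6 TMMp values are those of the members detected in at least 10% of TMMp cells, and no test of them is given because brightness was among the reasons for their choice. Over all 9423 genes at that share, 10.4% passed in limma, and the median difference was 0.29. GSTF3, GSTF9, GSTU20 and GSTU25 did not reach that share of cells. The brighter cells had more genes detected in every TMMp plate but TMM1, such as a median of 4102 against 2966 in TMM2. In TMM1 it was 2954 against 3114. With genes detected as a covariate, 61 genes were called with brightness in place of 982.

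The scatter signals were not named in the choice of the genes, so the same 6 members were tested on them. Side scatter, which follows the granularity of a cell, gave a change in both abundant members. In the TMMp cells above the median side scatter of their plate, GSTF8 fell by 0.41 ± 0.14 SE on the log2 scale (limma adjusted p = 0.0179 over 9423 genes) and was lower in 6 of 7 plates, from -0.97 to 0.10. GSTU19 rose by 0.82 ± 0.25 (limma adjusted p = 0.00943) and was higher in 6 of 7 plates, with plate TMM2 at -1.10 and the highest plate at 1.48. GSTF6, GSTF7, GSTF2 and GSTU24 had limma adjusted p values from 0.300 to 0.949. Against this, 34.5% of all genes passed, 34.4% higher and 0.117% lower in the cells above the median, and the median of all genes was 0.46. Other settings ended both calls. On log2 of the mean TPM on each side of the median, GSTF8 stood at -0.27 (limma adjusted p = 0.454) and GSTU19 turned to -0.30 (0.515), and with genes detected as a covariate they stood at -0.28 (0.479) and -0.42 (0.580). The GSTF8 call also ended without plate TMM2 (limma adjusted p = 0.0568), TMM5 (0.0730) or TMM6 (0.0539). The cells above the median had more genes detected, with plate medians of 2873 to 4302 against 2133 to 2746. Side scatter also rose with brightness within TMMp plates (mean correlation 0.60), so the results on side scatter and brightness rest on much the same split of cells. GSTF8 had the same value, -0.41 ± 0.14 SE, on both splits. The side scatter p-values are therefore not independent of the choice of the genes, and nothing about the members is read from them.

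Forward scatter, a proxy of cell size, gave no call among the 6 members in limma, where 10.5% of 9423 genes passed. On simulated plates this fit recovered 0% of log2 changes of 0.5 and 48% of changes of 1. The lack of a call therefore does not show that changes of that size were absent. Of the 6, 1 had an unadjusted p under 0.05 in limma, as had 2975 of the 9423 genes. The lowest adjusted p was 0.130, for GSTU19 (0.57 ± 0.27), and GSTF8 was at -0.23 ± 0.16 (limma adjusted p = 0.296). Without plate TMM2, where its difference was -2.40, GSTU19 passed at 1.07 (limma adjusted p = 0.0120). In ATML1p the cells with high forward scatter had more GSTF8 (1.52), GSTU19 (1.47) and GSTU24 (1.91) in 5 of 5 plates each.

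**Figure D3:**
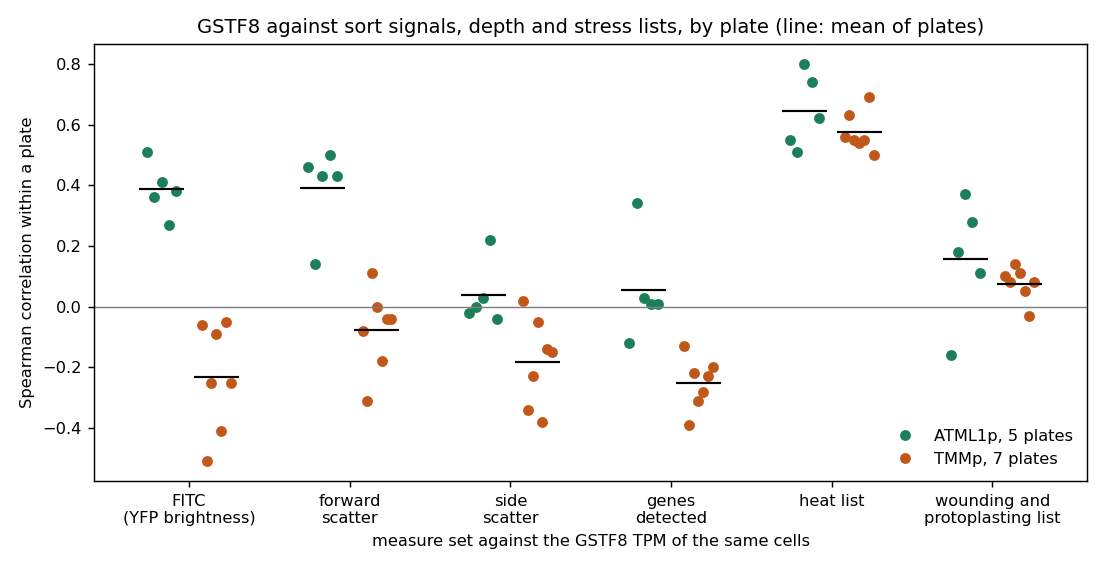
Spearman correlation of GSTF8 TPM with each of 6 measures across the cells of a plate, 1 point per plate, with a line at the mean of the plates. The FITC points of ATML1p lie between 0.27 and 0.51 and those of TMMp between -0.51 and -0.05, while both lines lie at 0.50 or more against the heat list.

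Heat genes went with the abundant transferases in both lines. The heat list of 24 genes holds heat shock proteins and their regulators. Its mean within-plate correlation was 0.64 in ATML1p and 0.57 in TMMp with GSTF8, and 0.58 and 0.71 with GSTU19. GSTU24 followed at 0.54 and 0.38 and GSTU25 at 0.33 and 0.25, and all 4 genes were above 0 in every plate. GSTF7 was at 0.08 and 0.30 and GSTF6 at -0.02 and 0.18, and GSTF9 was below 0 at -0.19 and -0.12. With the number of genes detected held constant, the values for GSTF8 were 0.68 and 0.62 and those for GSTU19 0.52 and 0.71. HSP18.2, of the small heat shock proteins, was detected in 41 TMMp cells. There GSTU19 averaged 10645 TPM against 6457 in the other 437, and GSTF8 averaged 10243 against 9312. Within plates, GSTU19 was higher in cells with HSP18.2 in 6 of 7 plates (mean log2 difference 2.06 ± 1.86 SD). GSTF8 differed little, at 0.09 ± 0.95 SD, from -1.90 to 0.95. Summed over the list, heat genes ran from 7616 to 23253 TPM per plate in ATML1p and from 15659 to 48969 in TMMp.

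Wounding and protoplasting genes went most with GSTF6 among the members. The list of 28 holds genes of jasmonate, touch and wounding responses, and its mean correlation with GSTF6 was 0.38 in ATML1p and 0.28 in TMMp, above 0 in all 5 and all 7 plates. GSTF8 was at 0.16 and 0.07, GSTU19 at -0.04 and -0.02, GSTU24 at -0.16 and -0.01 and GSTU25 at -0.30 and -0.10. GSTF6 was detected in 58.4% of the 238 TMMp cells with JAZ1, a jasmonate-induced repressor, and in 20.8% of the 240 without. In ATML1p it was in 71.9% of 114 cells with JAZ1 and 31.0% of 29 without. The median number of genes detected was 2580 with JAZ1 against 3027 without in TMMp, and 3172 against 3199 in ATML1p. Depth itself is unknown, and its part in these shares was not tested. TMMp cells with WRKY33, another gene of the list, had more GSTF6 and GSTF7 in 7 of 7 plates and more GSTF8 in 6. GSTU19, GSTU24 and GSTU25 were higher in them in 3 of 7. TCH2, a touch-induced calmodulin-like gene of the same list, behaved in another way. GSTF8 averaged 7821 TPM in the 283 TMMp cells with TCH2 and 11671 in the 195 without, and GSTF6 was in 28.3% and 55.9% of them. Cells with TCH2 had a median of 3306 genes detected against 2371, and the part of depth was not tested. In the 12 ATML1p cells with GSTU20 the wounding and protoplasting list summed to a median of 18311 TPM, against 9584 in the other 131. The heat list summed to 557 and 852. These medians were also taken over all plates, while most of the 12 cells lay on plates ML1 and ML2. Plate is therefore mixed into both contrasts, and its part was not tested. Within plates, GSTU20 correlated with the wounding and protoplasting list at 0.22 in ML1 and 0.00 in ML2. The correlation was 0.03 in ML1-5, 0.22 in ML1-6 and -0.05 in ML1-7.

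**Figure D4:**
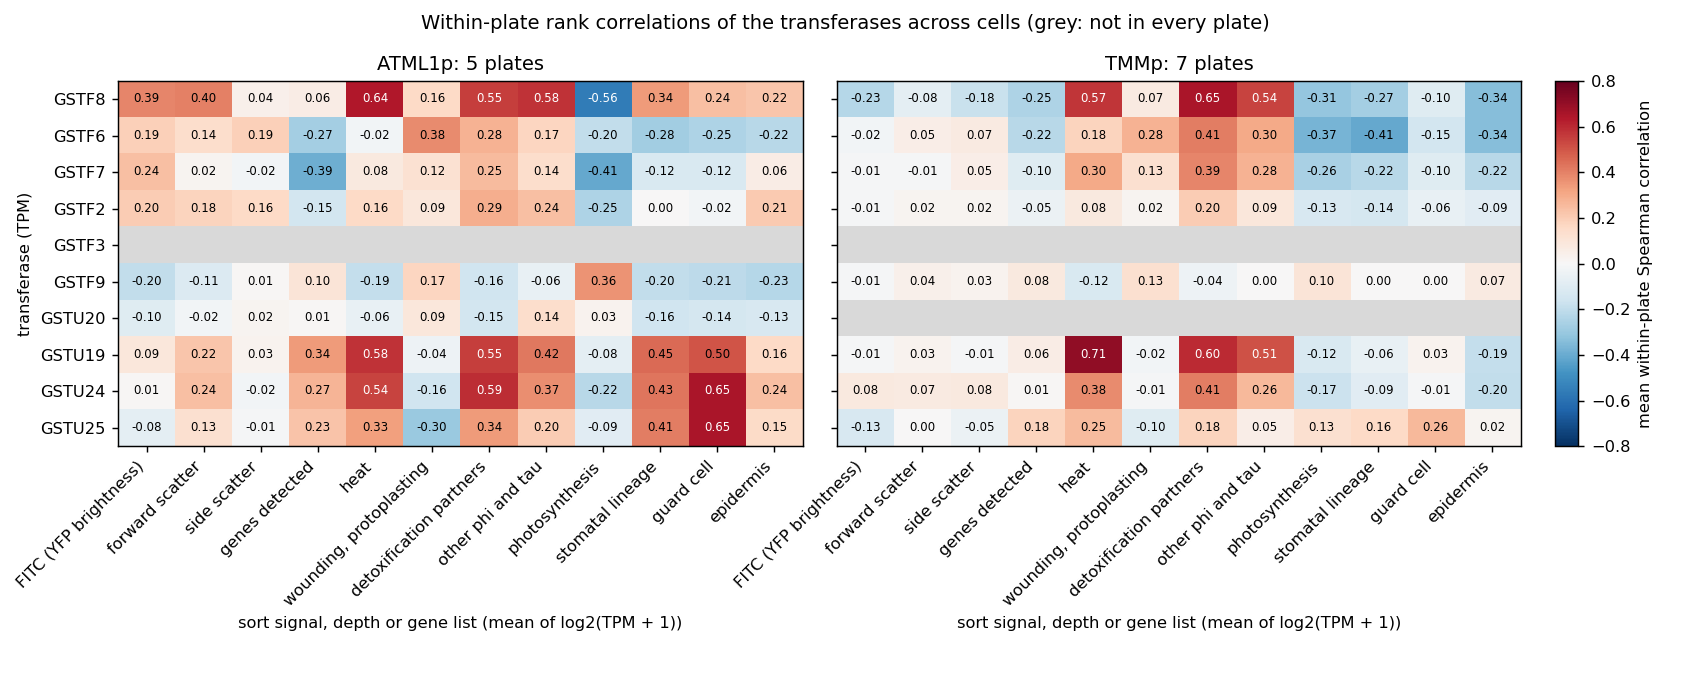
Mean within-plate Spearman correlation of each transferase with sort signals, genes detected and 8 gene lists, in ATML1p (left, 5 plates) and TMMp (right, 7 plates), with red above 0 and blue below. GSTF8 and GSTU19 are at 0.57 or more against the heat list in both lines, and GSTF6 is the highest member against the wounding and protoplasting list, at 0.38 and 0.28.

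The other genes of the pathway came from lists chosen with results of these data known. The p-values of list genes, here and below, therefore describe those genes and are no independent support for a pattern around the members. Of 29 further phi and tau transferases, 19 could be tested between lines, and 1 was lower in TMMp and none higher in limma. This was GSTU6, at 377 and 63.7 TPM in ATML1p against 11.3 and 6.63 (log2 difference -4.01 ± 0.78 SE, limma adjusted p = 0.0477). The call ended without plate ML2 or without the photosynthesis-rich cells. GSTU27 stood at -3.17 and GSTU3 at -2.78, and the list median was -0.29 beside 0.32 for all genes. None of the 13 genes of glutathione synthesis, recycling and conjugate transport passed (median -0.65). Among them GGT1, a gamma-glutamyl transferase, was at 446 and 219 TPM against 87.4 and 59.6 (-2.10 ± 0.41, limma adjusted p = 0.0503). ABCC3, a vacuolar pump of glutathione conjugates, stood at -2.17 and DHAR3, a dehydroascorbate reductase, at -1.65. None of 14 detoxification and oxidative stress partners of 16 passed either (median -0.11). CAT2, the main leaf catalase, stood at -3.23, the efflux carrier DTX1 at -2.42 and the glucosyltransferase UGT75B1 at -2.14. Of the 7 TGA factors, none passed (median -1.28), with TGA7 at -3.95, TGA3 at -1.73 and TGA1 at -1.55. At an unadjusted p under 0.05 limma had 5 of the 13 glutathione genes, 6 of the 14 partners and 1 of the 7 TGA factors. Of all 18390 genes tested between lines, 3984 were under the same limit, so nothing is read from these counts.

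Of the stress lists, 1 heat gene and 1 wounding gene were higher in TMMp and 1 wounding gene lower. HSP18.2 was at 68.8 and 102 TPM in TMMp against 10.3 and 2.46 (3.77 ± 0.64, limma adjusted p = 0.0322), and the 24 heat genes had a median of 1.05. DREB2A, a heat and drought regulator, stood at 1.31 and HSP21 at 1.69 without passing. TCH2 rose by 1.56 ± 0.29 (limma adjusted p = 0.0438) while LOX2, which starts jasmonate synthesis as a lipoxygenase, fell by 4.89 ± 0.88 (limma adjusted p = 0.0378), with a median of 0.28 over 25 genes. The TCH2 call also ended without TMMp pool 1. All 3 calls ended without plate ML2 and without the photosynthesis-rich cells. All 27 photosynthesis genes were lower in TMMp (median -2.71), and all 27 calls ended without the photosynthesis-rich cells, which this list defines.

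Some of these partners differed with brightness and scatter in TMMp. In the brighter cells, where limma called 24 of 9423 genes lower and 958 higher, 3 of 10 detoxification partners were lower and none higher. They were OPR1, an oxophytodienoate reductase (-0.80 ± 0.19, adjusted p = 0.00541), the glucosyltransferase UGT73B5 (-1.27 ± 0.38, adjusted p = 0.0227) and the cytochrome P450 CYP81D8 (-1.29 ± 0.39, adjusted p = 0.0230). With high side scatter OPR1 was lower again (-0.69 ± 0.20, limma adjusted p = 0.00907). In the same cells 4 of 11 glutathione genes were higher: GGT1 (1.29), DHAR1 (1.19), GSH1, the first enzyme of glutathione synthesis (0.85), and DHAR3 (0.60), with limma adjusted p values from 0.000874 to 0.0461. The share of all genes higher there was 34.4%. With genes detected as a covariate, OPR1 and UGT73B5 lost their calls in the brighter cells, OPR1 also lost its call with high side scatter, and of the 4 glutathione genes only GGT1 was still called with high side scatter. On log2 of the mean TPM on each side, every one of these calls ended. The side scatter call of OPR1 ended without plate TMM5 as well, and its values under the alternatives ran from -0.88 to -0.02. Leaving out single plates ended the brightness calls of OPR1 (TMM2), CYP81D8 (TMM2, TMM4 or TMM6) and UGT73B5 (TMM3, TMM4, TMM6 or TMM7). It also ended the side scatter calls of GSH1 (TMM2, TMM4, TMM5 or TMM6) and DHAR3 (each plate but TMM1 and TMM4). Over cells, the detoxification partners correlated with GSTF8 at 0.55 in ATML1p and 0.65 in TMMp, with GSTU19 at 0.55 and 0.60 and with GSTU24 at 0.59 and 0.41, while the glutathione genes were at -0.02 and 0.00 with GSTF8.

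The members themselves fell into groups of cells. GSTF8 and GSTU19 had the highest correlation in TMMp, at 0.61 (0.50 to 0.70 over 7 plates), and 0.47 in ATML1p. GSTF6 and GSTF7 were at 0.59 in ATML1p and 0.44 in TMMp, with both detected in 43 and 64 cells. Those were 91.5% and 72.7% of the cells with GSTF7, though shared reads could add to this. GSTF7 and GSTF2 were at 0.49 and 0.20. GSTU24 went with GSTU19 at 0.58 and 0.40, and all 40 ATML1p and all 73 TMMp cells with GSTU24 had GSTU19. GSTU24 and GSTU25 were at 0.60 in ATML1p, where 15 of 17 cells with GSTU25 had GSTU24, and at 0.21 in TMMp, where 14 of 31 did. GSTF9 stood apart from GSTF8, at -0.23 and -0.09. Its highest value was with GSTU20 in ATML1p, at 0.43, from 8 cells with both of 28 and 12.

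**Figure D5:**
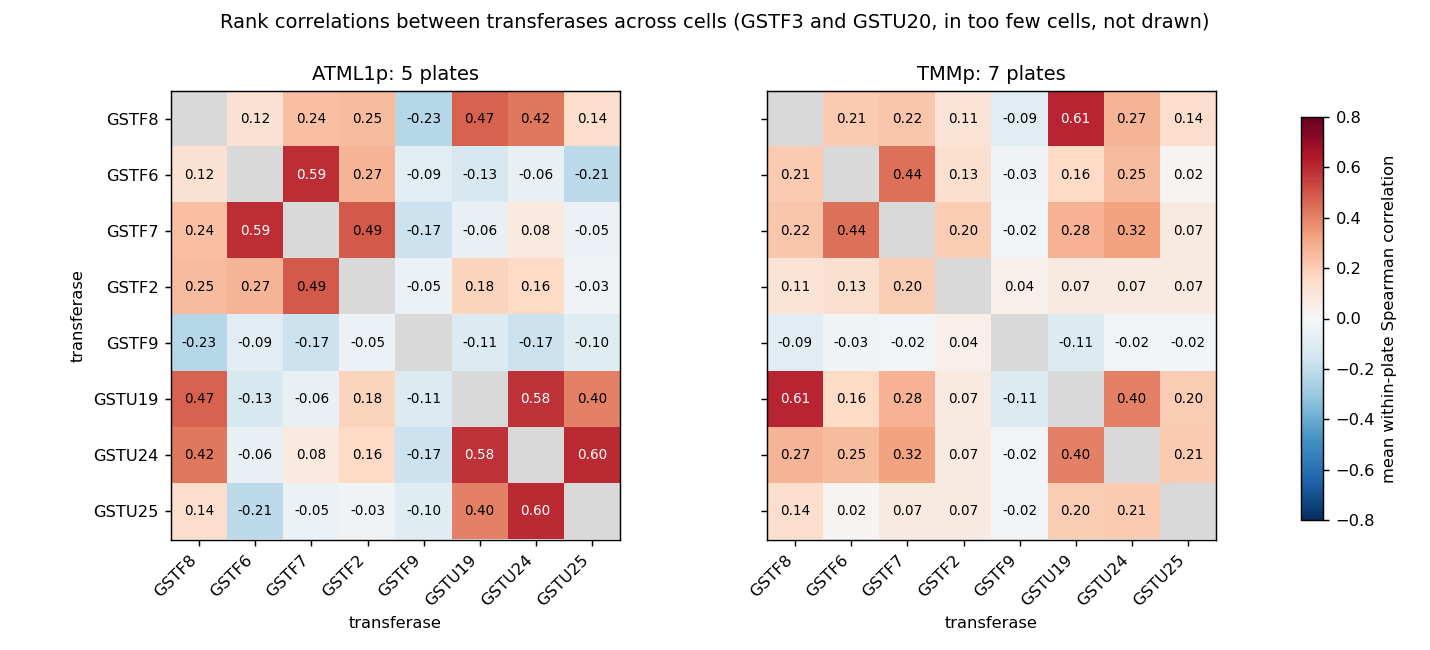
Mean within-plate Spearman correlation between 8 of the transferases across cells, in ATML1p (left) and TMMp (right), with red above 0 and blue below; GSTF3 and GSTU20 were in too few cells. The pairs GSTF8 and GSTU19, GSTF6 and GSTF7, and GSTU19 and GSTU24 are at 0.40 or more in both lines.

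The genes most like 3 of the members were ranked by mean within-plate correlation among genes detected in at least 10% of the cells of a line. In TMMp (9422 genes, 7 plates) GSTF8 was most like GSTU5, another tau transferase (0.71), SAG24 (0.70), AT5G54165 (0.67), Fes1A (0.67) and GSTU7 (0.66), where the median gene was at -0.09. In ATML1p (10745 genes, 5 plates) GSTU24 was most like RFNR1 (0.72), AT2G27200 (0.68), ABCB4 (0.68), AT4G02940 (0.67) and the cytochrome P450 CYP89A5 (0.66), with a median gene at 0.06. GSTU20, in 12 cells, was most like CPK29 (0.48), HVA22D (0.47), AT1G08800 (0.45), AT1G21440 (0.44) and GSTF9 (0.43), with a median gene at -0.02. These values describe the cells of these plates, which share depth and library preparation.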

How the data were processed

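Per the labels, 621 single cells were profiled with Smart-seq2. Gene expression was deposited by the authors as TPM, 1 column per cell, with the quantifier not given in the sources used here; TAIR10 is named in the submitters' processing notes without saying for which samples. A sort table deposited by the authors gave forward scatter, side scatter and FITC areas on a log2 scale. Cells were mapped to line, pool and plate by their labels. The members and gene lists were chosen with earlier results of these data known.

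TPM were averaged over the cells of each pool. Lines were compared on log2(mean TPM + 1), 2 pools against 2, with limma 3.58.1 in R 4.3.3 (trended prior), over the 18390 genes whose mean TPM reached 1 in 2 or more pools. On this scale the change of low genes is understated. Within TMMp, each plate was split at its median of a sort signal, and the mean log2(TPM + 1) below the median was subtracted from that above it and tested over 7 plates with limma, over 9423 genes detected (TPM of at least 1) in at least 10% of TMMp cells. p-values were adjusted by Benjamini-Hochberg over all genes tested, with a threshold of 0.05. Both fits were tested on simulated data with 200 changed genes. The line fit recovered 71.5% of log2 changes of 2 and 100% of changes of 4. The scatter fit recovered 0% of changes of 0.5, 48% of changes of 1 and 98.5% of changes of 2. Spearman correlations were taken over the cells within a plate and then averaged over plates, in Python 3.11.15 with scipy 1.17.1, with list levels as the mean of log2(TPM + 1). Cell classes within a plate were compared where each side had at least 3 cells. Named genes were all 10 members, list genes past the threshold or among the 3 largest line differences of a list, and the 5 genes most like GSTF8, GSTU20 and GSTU24. Intervals are exact Clopper-Pearson at 95%. Since the depth is unknown, no floor was set on values of 0. Doublets were not called. Sequences are RefSeq's for TAIR10.1, matched by gene ID, with 1 transcript model a gene. Alternatives were another pseudocount, filters, units, scalings, cell sets and leaving out each pool or plate; 2 were added after seeing the data, without plate ML2 and without photosynthesis-rich cells.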

Additional observations from a re-analysis of the deposited data

Results flagged for a closer look

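Of 38 groups of plates, 6 held a plate far from the rest, where chance gives about 1 in 20. On the scale of log2(mean TPM + 1), GSTF6 was at 10.67 in ATML1p plate ML2, with the nearest plate at 11.46. GSTF3 was at 2.29 in ATML1p plate ML1-7 (nearest 0.17) and at 6.08 in TMMp plate TMM5 (nearest 1.95). GSTU20 was at 1.67 in plate TMM6, with all other TMMp plates at 0. Between cells above and below the median of plate TMM2, GSTU19 differed by -2.40 for forward scatter (nearest 0.13) and by -1.10 for side scatter (nearest 0.78).

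In 7 of 136 relations every ATML1p plate went one way and every TMMp plate the other; the difference between the lines was not tested. GSTF8 correlated with FITC brightness at a mean of 0.39 in ATML1p and -0.23 in TMMp. Its values were 0.22 and -0.16 with the TMM transcript, 0.34 and -0.27 with the stomatal lineage list, and 0.22 and -0.34 with the epidermis list. GSTF7 was at 0.21 and -0.17 with the YFP transcript and at 0.06 and -0.22 with the epidermis list. GSTU24 was at 0.24 and -0.20 with the epidermis list.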

How the results depend on the processing

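The number of genes called between lines (430, 85 higher and 345 lower in TMMp) was 153 with a pseudocount of 0.1, 1001 on means of log2 values (369 higher, 632 lower), 842 after quantile normalization (199 higher, 643 lower) and 2694 with plates as the unit (1589 higher, 1105 lower). With no filter limma called 0 of 24526, with 4015 at an unadjusted p under 0.05. It was 67 without photosynthesis-rich cells, 11 without cells with at least 14 of 27 photosynthesis genes, and 539 to 4696 leaving out a pool, with 1768 without ATML1p pool 1 and 4696 without pool 2. With pool number as a replicate block it was 1696 (692 higher, 1004 lower); the labels do not say that a number is shared, and deviations of same-numbered pools correlated at 0.05 over 18390 genes.

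Brightness calls (982) were 4 on log2 of mean TPM, 61 with genes detected as a covariate and 377 to 2027 leaving out a plate. Forward scatter calls (988) were 1503 with a pseudocount of 0.1, 52 with the covariate, 2047 with only the cells at both ends of the signal and 190 to 1482 leaving out a plate. They were 0 in limma on log2 of mean TPM and with no filter, where 766 and 3770 had an unadjusted p under 0.05. Side scatter calls (3254) were 34 on log2 of mean TPM, 161 with the covariate, 1850 at 25% of cells, 1212 with no filter and 1998 to 3498 leaving out a plate.

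Of 75 alternative values of members for side scatter, 65 kept direction and side of the threshold, 7 lost the call, 1 gained it (GSTF6 with only the cells at both ends, 1.35, limma adjusted p = 0.0296) and 2 reversed, GSTU19 at -0.30 on log2 of mean TPM and -0.42 with the covariate. Of 75 for forward scatter 73 kept it, and GSTU19 passed with a pseudocount of 0.1 (0.86) and without plate TMM2 (1.07). Of 138 line values of members, 119 moved by less than the spread; GSTU20 could be fitted in only 2 of 4 fits leaving out a pool (-7.54 to -7.01). Other causes were not tested. Correlations with stress lists, given genes detected, moved in 3 of 38, such as GSTF7 with heat genes in ATML1p from 0.08 to 0.32. Depth is unknown, so a transcript listed at 0 was not detectable rather than absent.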
